A study of Mus musculus with 6 samples.

Results

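Accessible regions were collected around 10 genes of the Wnt pathway in mouse epiblast stem cells: the TCF/LEF genes Lef1, Tcf7, Tcf7l1 and Tcf7l2, the zinc finger genes Sp5 and Sp8, and the feedback inhibitor genes Axin2, Nkd1, Notum and Dkk1. A region belonged to a gene if that gene was the nearest protein-coding gene within 100 kb. By this rule 367 of 239675 regions were members. They came from 328 of 205844 peaks of one deposited list, named FM, and 208 of 139164 peaks of the other, named KO.

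The assay was ATAC-seq, in which Tn5 transposase cuts open chromatin. Both groups were epiblast stem cells, kept on irradiated mouse embryonic fibroblasts with bFGF and Activin A and then aggregated as embryoid bodies differentiated in serum for 2 days. The knockout group had 3 libraries of Mixl1 KO cells, and each library was made from 50000 cells. The induced group had 3 libraries of a Mixl1-inducible line, treated with 1 µg/mL doxycycline during a 24 h window. The labels do not say which part of Mixl1 was deleted, how many clones were used or whether the knockout cells received doxycycline. Mixl1, doxycycline and the cell line therefore cannot be told apart as sources of a difference. Each group was deposited as 1 peak list, so no value has a replicate error and the groups could not be tested against each other. The KO list is that of the knockout, and no label explains the name FM, which was given to the induced cells because no other group was left.

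In canonical Wnt signalling, stabilised beta-catenin enters the nucleus and binds TCF/LEF proteins, which hold target genes silent without it and activate them with it. Some targets, such as Axin2, Nkd1, Notum and Dkk1, encode proteins that dampen the pathway again. Wnt signalling drives formation of the primitive streak, where Mixl1, a homeobox transcription factor of mesendoderm, is expressed.

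In mm10 coordinates of RefSeq, the TCF/LEF genes lie at chr3:131110297-131224357 (Lef1, gene ID 16842, plus strand), chr11:52246527-52283383 (Tcf7, 21414, minus), chr6:72626371-72789045 (Tcf7l1, 21415, minus) and chr19:55741797-55933659 (Tcf7l2, 21416, plus). The zinc finger genes lie at chr2:70474923-70477726 (Sp5, 64406, plus) and chr12:118846288-118852578 (Sp8, 320145, plus). The inhibitor genes lie at chr11:108917828-108950783 (Axin2, 12006, plus), chr8:88521342-88594887 (Nkd1, 93960, plus), chr11:120653788-120661193 (Notum, 77583) and chr19:30545876-30549496 (Dkk1, 13380, minus). Exons were not used here, so a region is given as inside a gene, upstream or downstream of it.

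All 10 genes had a peak within 1 kb of a start in both lists, as did 70.9% of all protein-coding genes. The 250 bases before the start are shown for 3 of them. Sp5 and Dkk1 carried the most TCF/LEF core letters of the promoters of these genes. Axin2 had the largest ratio of start summit heights between the lists. Capitals mark the core CTTTG, read as CAAAG on the other strand. Sequences are from RefSeq, build GRCm38.p6 (mm10), and run in the direction of transcription.

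Sp5, chr2:70474673-70474922, plus strand: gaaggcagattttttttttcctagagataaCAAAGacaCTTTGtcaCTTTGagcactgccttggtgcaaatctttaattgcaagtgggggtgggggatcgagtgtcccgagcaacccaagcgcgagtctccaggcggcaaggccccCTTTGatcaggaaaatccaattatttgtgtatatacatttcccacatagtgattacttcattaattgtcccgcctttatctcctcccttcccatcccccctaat
Dkk1, chr19:30549497-30549746, minus strand: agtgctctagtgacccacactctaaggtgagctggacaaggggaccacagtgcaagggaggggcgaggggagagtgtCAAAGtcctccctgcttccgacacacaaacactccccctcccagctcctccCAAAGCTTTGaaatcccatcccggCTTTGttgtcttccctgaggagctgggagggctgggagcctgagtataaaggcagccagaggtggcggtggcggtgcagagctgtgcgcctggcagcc
Axin2, chr11:108920099-108920348, plus strand: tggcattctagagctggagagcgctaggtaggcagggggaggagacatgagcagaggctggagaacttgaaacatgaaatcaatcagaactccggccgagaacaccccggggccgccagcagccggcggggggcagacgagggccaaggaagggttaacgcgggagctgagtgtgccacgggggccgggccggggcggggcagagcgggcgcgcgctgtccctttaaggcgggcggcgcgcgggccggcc

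Motifs were counted on both strands of promoter windows of 300 bases, from 250 before to 50 after the start. The table held 16 such windows for 9 of the 10 genes, all but Notum. CTTTGNN was found in 11 of the 16 (68.8%), compared with 53.7% of all 32851 windows. Sp5 held 5 matches and Dkk1 held 4, numbers reached by 0.280% and 1.36% of all windows. CTTTGAT, whose matches are all matches of CTTTGNN too, was found only at Sp5 among the 16, and in 3.73% of all windows. For homeodomain letters, TAATTA was found in 1 of the 16 windows, at Sp8, and in 5.29% of all, and TAAT with ATTA 3 bases after it was found in 0 of the 16 and in 0.487% of all. The Axin2, Tcf7 and Nkd1 windows had no match to any of the 4 motifs. GC content ranged widely, from 42.0% at the internal start of Tcf7l2 to 76.3% at a Tcf7 start, around a median of 60.8% that stood above the 52.7% of all windows. Of the 16 windows, 10 lay entirely within FM peaks and 11 within KO peaks, and 4 had no base in a peak of either list.

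The starts were compared by the fragments stacked at the summit of the strongest start peak, recovered from the authors' fold enrichment and p-value. The highest summit of each list was taken, so the summits of the lists can lie at different places. Intervals in parentheses are exact 95% Poisson intervals, which cover counting error only. The local background is the fragment number the peak caller predicted for that place, and fold enrichment is the ratio of both after 1 is added to each. Over 14931 genes with both values, the KO summit was a median of 1.19 times the FM summit, and 90% of genes lay between 0.724 and 1.78 times.

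Axin2, which encodes a scaffold of the beta-catenin destruction complex and is a widely used Wnt target, stood out by the height of its start summit. Its start peak spanned chr11:108920119-108922219 in the FM list and chr11:108920054-108922162 in the KO list. The highest summit had 246 fragments (216 to 279) in the FM list and 481 (439 to 526) in the KO list. Backgrounds were close, at 92.8 and 96.0 fragments, so the fold enrichment was 2.63 and 4.97. The KO summit was thus 1.96 times as high, a ratio reached by 2.24% of the 14931 genes. Both peaks held 5 summits at nearly the same places, and the difference lay at the first ones. At 21 bp after the RefSeq start the FM list had 213 fragments (185 to 244), whereas at 8 bp the KO list had 481. Near 400 bp the summits had 246 fragments in FM, at 395 bp, and 383 (346 to 423) in KO, at 423 bp. From the third summit onward the intervals overlapped, with 223 in FM at 797 bp and 240 in KO at 819 bp. The last summits, at 1714 and 1720 bp, had 182 and 160.

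**Figure D1:**
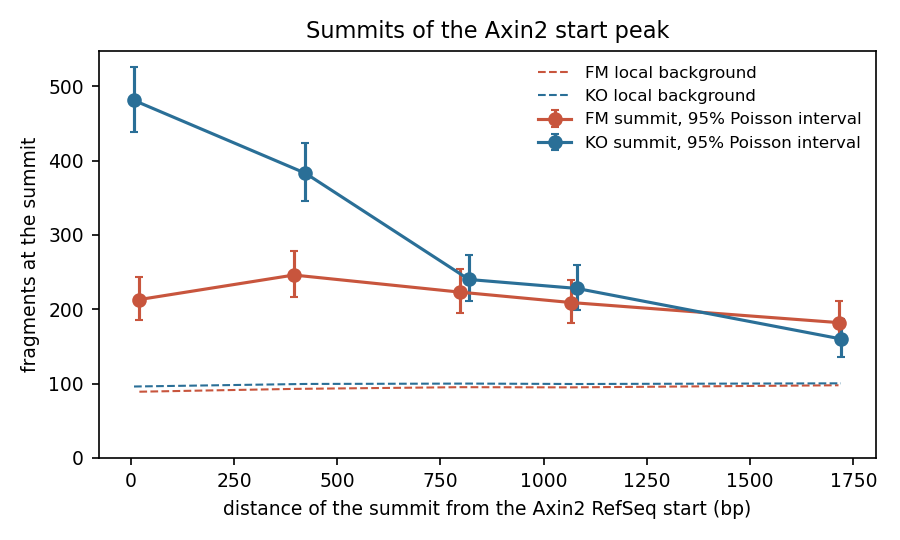
Fragments at each summit of the Axin2 start peak (vertical axis) against the distance of the summit from the RefSeq start in bp (horizontal axis), for the FM list (red) and the KO list (blue), with exact 95% Poisson intervals; dashed lines are local backgrounds. The KO summit of 481 fragments at 8 bp stands above the FM summit of 213 at 21 bp, and the intervals overlap from the third summit on.

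At the other starts the summit heights of the lists were closer. Among the TCF/LEF genes, Lef1 had a start summit of 195 fragments (169 to 224) in FM and 194 (168 to 223) in KO. Tcf7l1, whose product acts mainly as a repressor in pluripotent cells, had 280 (248 to 315) and 257 (227 to 290). Tcf7l2 had 261 (230 to 295) and 270 (239 to 304). The intervals of these 3 genes overlapped between the lists. Tcf7 had 175 (150 to 203) in FM and 234 (205 to 266) in KO, intervals that did not overlap, at 1.34 times. The ratio of 1.34 lies within the range that held 90% of genes. These summits were different places, 469 bp after the 5′ end of the gene in FM and 52 bp in KO. At 498 bp KO had 178 (153 to 206), near equal to FM. At 121 bp, the FM summit nearest to the KO one, FM had 170 (145 to 198), below KO.

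Sp5, a zinc finger repressor induced by Wnt, had a start summit of 214 fragments (186 to 245) in FM and 252 (222 to 285) in KO, with overlapping intervals. These summits were different places, 1739 bp after the start in FM and 1022 bp in KO. At 1737 bp the KO list had 153 fragments (130 to 179), fewer than FM. At 1129 bp, the FM summit nearest to the KO one, FM had 194 (168 to 223). The Sp5 peak was wide, 2844 bp in FM and 2481 bp in KO, against a gene of 2804 bp. At Sp8, a related gene, the strongest start peak was a different one in each list, so both start regions were compared. The region at chr12:118846650-118847684, with the strongest KO start peak, had 176 fragments (151 to 204) in FM and 279 (247 to 314) in KO. The other, chr12:118848133-118850237, with the strongest FM start peak, was near equal, with 216 fragments in FM and 224 in KO. Chromosome 12 had fewer FM-specific regions than the genome, 63.5% of its specific ones, and whether this bears on Sp8 was not tested.

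Dkk1, a secreted inhibitor of the Wnt co-receptors, was near equal in the lists, with 158 fragments (134 to 185) in FM and 154 (131 to 180) in KO. Its background was the lowest of the 10 genes, 37.6 and 35.9, which gave folds of 4.12 and 4.20. Notum, a secreted enzyme that inactivates Wnt ligands, had 182 (157 to 210) and 181 (156 to 209). Backgrounds there were 79.9 and 65.0, and the folds were 2.26 and 2.76 although the summits were equally high. Nkd1, an inhibitor that binds Dishevelled, had 294 (261 to 330) and 334 (299 to 372). Its peak, at chr8:88520890-88522027 in FM, covered the end of lower coordinate of the gene. A second start region of Nkd1, chr8:88522337-88523100, went the other way, with 184 (158 to 213) in FM and 132 (110 to 157) in KO. The start that the promoter table gives for Nkd1, at 88527633, had no peak within its window in either list.

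**Figure D2:**
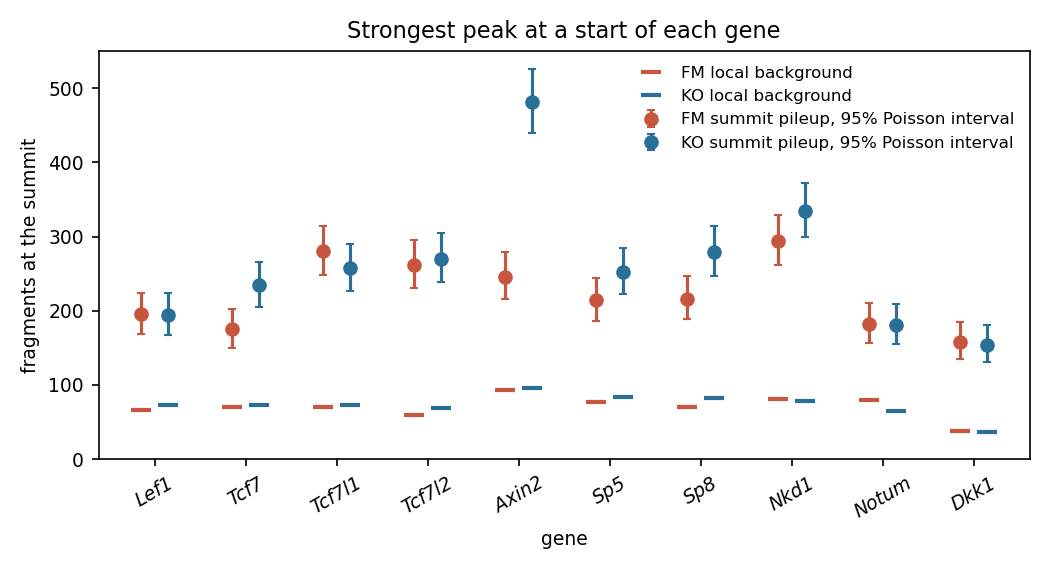
Fragments at the summit of the strongest start peak (vertical axis) of each gene in the FM list (red) and KO list (blue), with exact 95% Poisson intervals. Horizontal dashes are local backgrounds. At Sp8 the lists' strongest start peaks are different regions, and at Sp5 the summits of the lists lie 717 bp apart. Summits also lie apart at Tcf7 (417 bp), Axin2 (387 bp) and Notum (305 bp). Axin2 stands apart with 481 fragments in KO and 246 in FM, and Dkk1, Lef1 and Notum are near equal.

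Around the genes, 158 of the 367 regions were shared (43.1%), 163 had a peak only in the FM list and 46 only in the KO list. Over all regions 40.5% were shared, 43.6% were FM only and 16.0% KO only. Of the specific regions of the 10 genes, 78.0% (exact binomial interval 71.8 to 83.4) were FM-specific, compared with 73.2% of all specific regions, so the interval includes the genome's share. Such intervals treat neighbouring regions as independent and cover counting only. Specific regions were weak: the median fold was 1.91 for FM-only and 1.87 for KO-only members, against 2.25 in FM and 2.10 in KO for shared ones. Over all regions it was much the same, 1.86 for FM-only and 1.88 for KO-only, against 2.17 in FM and 2.11 in KO for shared ones.

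The genes differed in how many regions they held. Tcf7l2 had 90, Lef1 66, Tcf7l1 56, Nkd1 50, Axin2 45, Tcf7 28, Sp8 16, Sp5 7, Dkk1 5 and Notum 4, and the median of all genes was 5. The long genes Tcf7l2, Lef1 and Tcf7l1 held most of the regions inside their bodies, 57, 37 and 50. Axin2 is 33.0 kb long and had only 13 regions inside, with 9 upstream and 23 downstream. The 3 genes with fewest regions, Sp5, Dkk1 and Notum, had 1 to 3 inside.

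**Figure D3:**
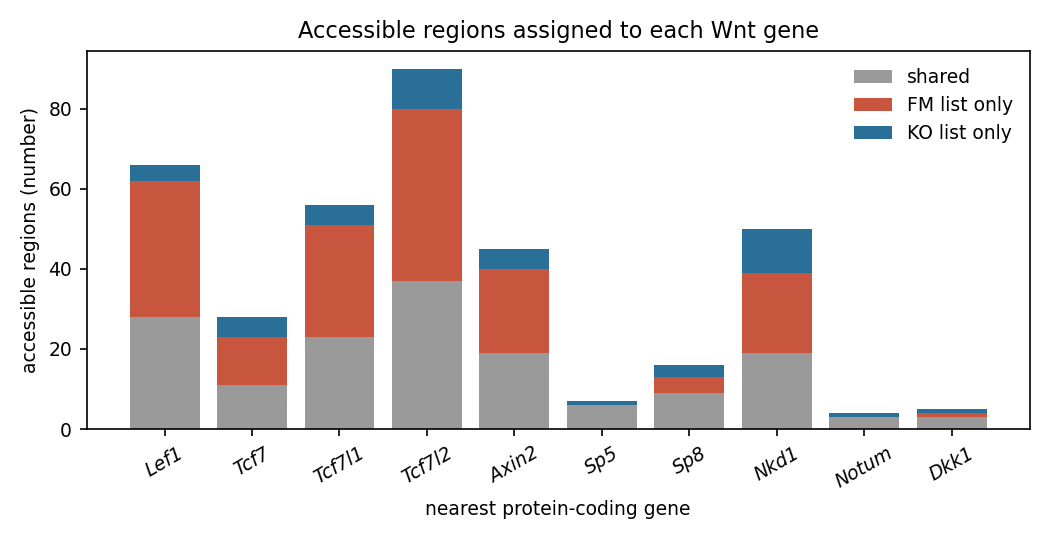
Number of accessible regions (vertical axis) whose nearest protein-coding gene is the one on the horizontal axis, split into shared (grey), FM list only (red) and KO list only (blue). Tcf7l2 has 90 regions and Notum 4; FM-only regions outnumber KO-only ones at the 6 genes with 28 regions or more, and Sp5 and Notum have none.

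By role, the TCF/LEF genes had 117 FM-only and 24 KO-only regions, an FM-specific share of 83.0% (75.7 to 88.8). The feedback inhibitor genes had 42 and 18, or 70.0% (56.8 to 81.2), and Sp5 and Sp8 together had 4 and 4. Lef1 had 34 and 4 (89.5%, 75.2 to 97.1), the highest share of the 10 genes, and Nkd1 had 20 and 11 (64.5%, 45.4 to 80.8). Tcf7 had 12 and 5, or 70.6% (44.0 to 89.7), the only TCF/LEF gene below the 73.2% of the genome. The lowest shares rested on few regions, with 4 and 3 at Sp8 (57.1%), 1 and 1 at Dkk1, and 0 and 1 at both Sp5 and Notum. The surroundings of the genes were counted as well. Among regions within 1 Mb of Lef1 that were not its own, 86.0% (77.3 to 92.3) of the specific ones were FM-specific. The same measure was 84.5% (79.0 to 89.0) around Tcf7l2, where the gene had 81.1%, and 79.1% (72.9 to 84.5) around Tcf7l1, where the gene had 84.8%. Around Tcf7 it was 76.2% (70.7 to 81.0). Around Axin2 it was 82.8% (76.7 to 87.9), beside 80.8% for the gene. At each of the 10 genes the interval of the gene overlapped that of its surroundings. Around Nkd1 the value was 79.9% (74.5 to 84.7), above the gene's 64.5%.

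**Figure D4:**
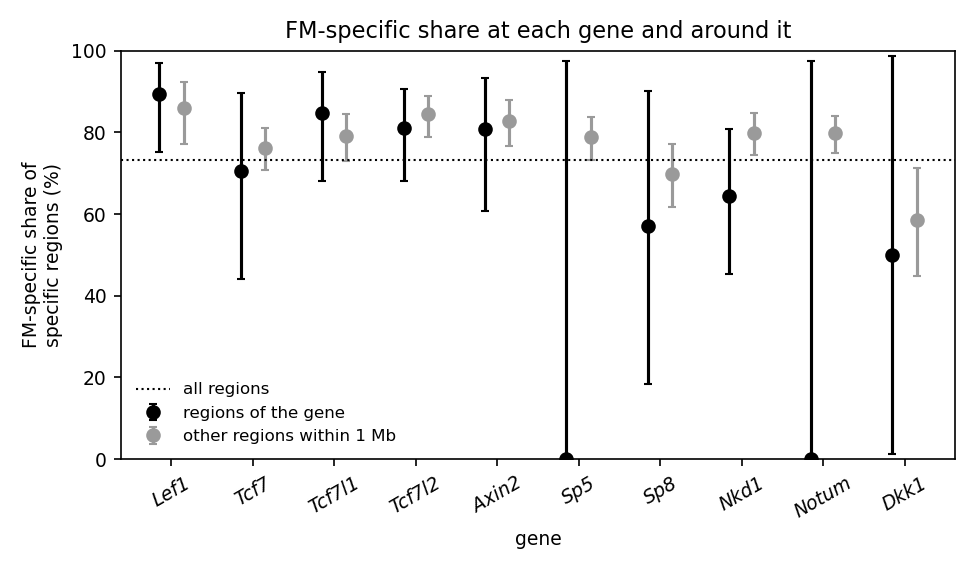
FM-specific share of specific regions in % (vertical axis) at each gene (black) and among other regions within 1 Mb (grey), with exact 95% binomial intervals; the dotted line is the 73.2% of all specific regions. The intervals of gene and surroundings overlap at all 10 genes, and at Sp5, Notum and Dkk1 the gene's own share rests on 1 or 2 regions.

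**Figure D5:**
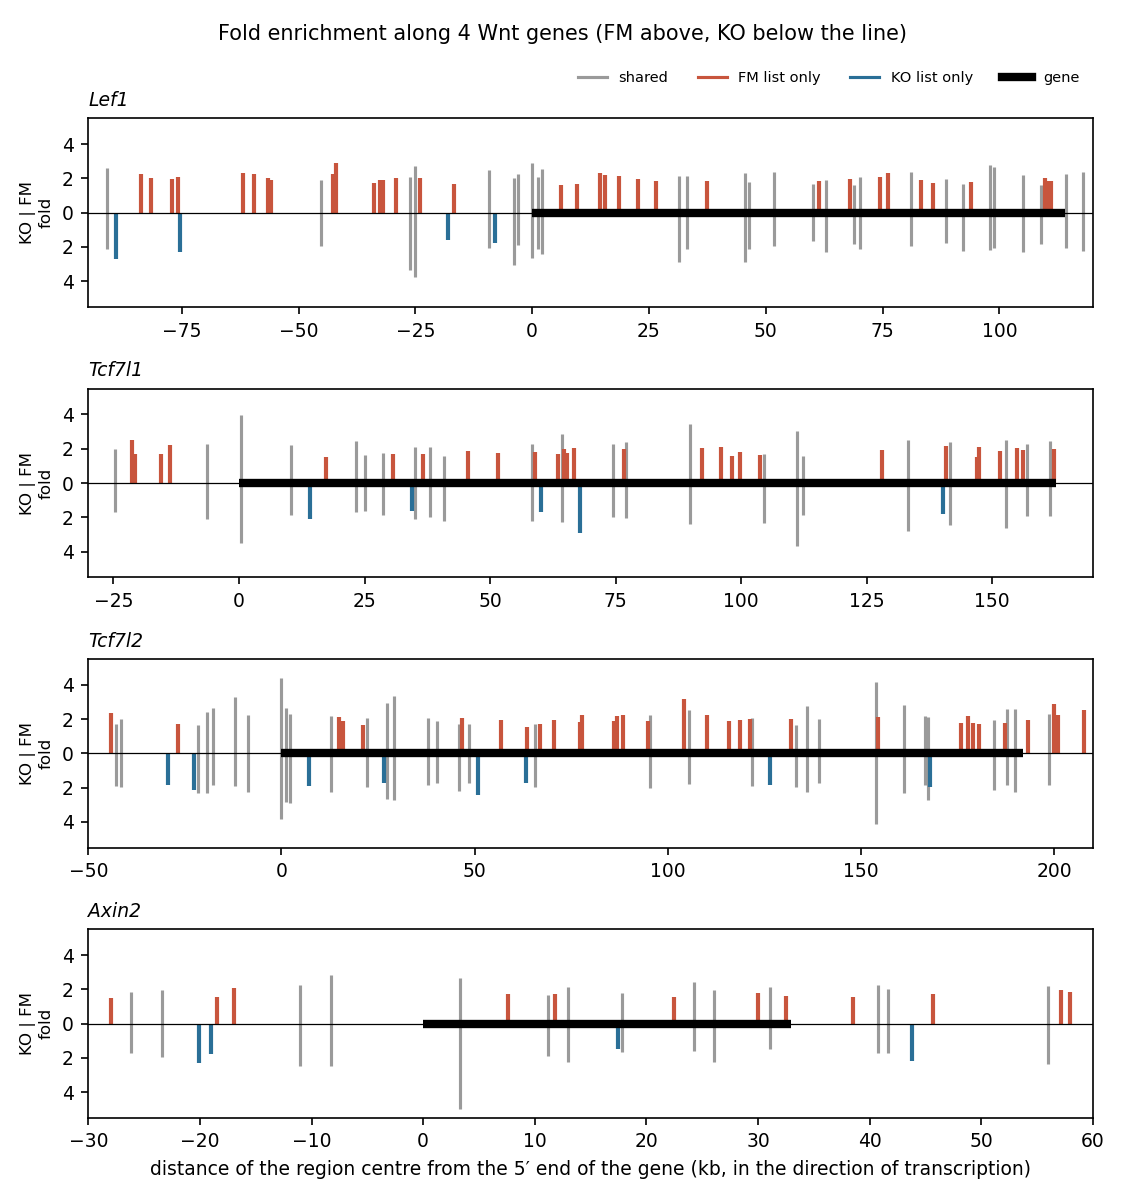
Fold enrichment of each region in the FM list (upward) and the KO list (downward) against the distance of the region centre from the 5′ end of the gene in kb, for Lef1, Tcf7l1, Tcf7l2 and Axin2 (regions outside the plotted windows, such as those beyond 60 kb at Axin2, are not drawn); grey lines are shared regions, red FM only, blue KO only, and the black bar is the gene. FM-only lines are numerous at Lef1, Tcf7l1 and Tcf7l2 and mostly near a fold of 2, and the longest KO line at Axin2 is the start peak with a fold of 4.97.

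Shared regions were compared by the summit pileups of each list's strongest summit in the region, so the summits can be different places. The summits of the lists lay a median of 53 bp apart, but much farther in some regions. Pileups could be recovered in both lists for 157 of the 158. The FM interval lay above the KO interval in 17 (10.8%), compared with 6.37% of all shared regions. The KO interval lay above in 11 (7.01%), compared with 9.14% of all. Both directions were found near starts and far from them. Within 5 kb of a start of the gene, 6 of 29 regions were higher in KO (20.7%) and 2 in FM (6.90%). Those higher in FM include a region at the end of lower coordinate of Notum. It counts as near a start only because both ends of that gene were used. Over all shared regions that near a start the shares were 22.1% and 5.90%, so these genes were close to the genome there. Farther than 5 kb from a start, 15 of 128 regions were higher in FM (11.7%) and 5 in KO (3.91%), and over all such regions the shares were 6.54% and 4.42%. The local background moved with the pileup: it was higher in FM in 16 of the 17 regions with the higher FM interval, and higher in KO in all 11 with the higher KO interval. The fold, which sets the pileup against that background, was higher in the same list in all 17 and all 11, and the part of the background in these differences was not tested. Ranked by fold among shared regions, 36 of 158 stood over 20 percentile points higher in FM (22.8%) and 28 higher in KO (17.7%), each against 17.2% of all. A fold at least 1.5 times that of the other list was seen in 5 for FM (3.16%, against 1.77% of all) and in 4 for KO (2.53%, against 3.51%).

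Lef1 had 3 shared regions whose intervals did not overlap, and all 3 lay upstream and were higher in KO, although its specific regions were mostly FM only. The region chr3:131083761-131084523, 25.8 kb from the gene, had 72 fragments (56.3 to 90.7) in FM and 140 (118 to 165) in KO. Its neighbour chr3:131084710-131085575, the strongest distal region of Lef1, had 93 (75.1 to 114) and 157 (133 to 184). The third, chr3:131105893-131106744, lay 3.55 kb from the gene, with 124 (103 to 148) and 198 (171 to 228), at summits 494 bp apart. The strongest FM-only region, chr3:131068037-131068568, had 85 fragments (67.9 to 105), a fold of 2.91 and the nearest KO peak 2.72 kb away.

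At Tcf7l1 the 5 regions with separate intervals were all higher in FM and all inside the gene. The largest difference was at chr6:72698794-72699841, with 153 fragments (130 to 179) in FM and 77 (60.8 to 96.2) in KO. These summits lay 544 bp apart. The strongest distal region of the gene, chr6:72677128-72678575, was alike in the lists, with 195 and 201 fragments. The strongest KO-only region, chr6:72720948-72721197, had 93 fragments (75.1 to 114) and a fold of 2.91, the highest fold among the 46 KO-only members.

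Tcf7l2 had 3 regions higher in FM and 1 higher in KO. A region 91.0 kb beyond the gene, chr19:56024689-56025136, had 113 fragments (93.1 to 136) in FM and 58 (44.0 to 75.0) in KO. Another 11.8 kb upstream, chr19:55729250-55730029, had 96 (77.8 to 117) and 58. The region higher in KO lay just inside the gene, at chr19:55743489-55744443, with 134 (112 to 159) and 201 (174 to 231). The strongest FM-only region of all 163, chr19:55845901-55846220 inside the gene, had 108 fragments (88.6 to 130) and a fold of 3.14. Tcf7l2 also had a strong shared region at chr19:55895381-55895770, beside its internal RefSeq start, with folds of 4.16 in FM and 4.12 in KO.

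Tcf7 had 1 region higher in FM inside the gene, chr11:52272245-52272678, with 123 fragments (102 to 147) and 74 (58.1 to 92.9). Just upstream of its start peak were specific regions of both lists: chr11:52284330-52284541 in KO with 149 fragments and chr11:52285309-52285577 in FM with 132. Each lay under 1 kb from the nearest peak of the other list.

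Inside Axin2, away from its start, all 6 shared regions had the higher pileup and the higher background in FM, but the fold was higher in FM in 3 and in KO in 3. The 3 with higher FM folds were those with separate intervals. They were chr11:108935471-108935912 with 104 fragments (85.0 to 126) in FM and 65 (50.2 to 82.8) in KO, chr11:108941796-108942474 with 162 (138 to 189) and 75 (59.0 to 94.0), and chr11:108948605-108949200 with 142 (120 to 167) and 73 (57.2 to 91.8). Their folds were 1.80 in FM and 1.63 in KO, 2.43 and 1.58, and 2.15 and 1.48, in that order, over backgrounds of 57.4 and 39.5, 66.2 and 47.0, and 65.4 and 48.8 fragments. Of the 3 with higher KO folds, chr11:108943695-108944168 had 1.97 in FM and 2.25 in KO, and the largest rank difference towards KO at this gene, fold percentile 33.3 against 59.3. The region nearest to Axin2 with the highest fold, chr11:109011546-109012222, lay 60.8 kb away and had folds of 22.7 in FM and 23.3 in KO. Only 41 FM and 67 KO peaks of the whole lists had a fold of at least 20, and the next highest among the 367 members was 6.36 in FM and 6.91 in KO. What this site is was not tested, and no result above rests on it.

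Those next highest folds belonged to Sp8, at chr12:118835984-118837700, 8.59 kb upstream, with 285 fragments (253 to 320) in FM and 372 (335 to 412) in KO. A region 1.93 kb beyond Sp8, chr12:118854507-118855508, had 213 (185 to 244) and 325 (291 to 362). Together with the start region chr12:118846650-118847684, all 3 Sp8 regions with separate intervals were higher in KO. Sp5 had 1 such region, also higher in KO, at chr2:70471804-70472360, 2.56 kb upstream, with 114 fragments (94.0 to 137) and 193 (167 to 222). Its single specific region was KO only, chr2:70491043-70491717, with 87 fragments (69.7 to 107).

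Nkd1 had 4 regions higher in FM and 1 higher in KO. The FM-higher ones included chr8:88472240-88473040 and chr8:88506975-88507651 upstream, with 97 and 88 fragments in FM and 55 and 47 in KO. The latter had the largest rank difference of the 158 shared regions, percentile 77.0 in FM and 6.94 in KO. The region higher in KO was the farthest from the gene, chr8:88453906-88455845, with 164 (140 to 191) and 230 (201 to 262). The summits there lay 893 bp apart. The strongest distal region of Nkd1, chr8:88603502-88604512, had 214 and 251 fragments. At Notum, chr11:120653977-120654399 over the end of lower coordinate was higher in FM, with 134 (112 to 159) and 88 (70.6 to 108). Dkk1 had no region with separate intervals, and its strongest distal region, chr19:30554293-30555022, had 81 fragments in FM and 114 in KO.

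Among specific regions with −log10 q of at least 10, 9 of the members were FM only and 8 KO only. Over all regions 63.1% of such specific regions were FM-specific. Tcf7l2 had 4 of the FM-only ones and Nkd1 2, and no gene had more than 1 of the KO-only ones. Of the 17, the nearest peak of the other list was 0.079 kb away at Nkd1 and 8.79 kb away, the farthest, at Tcf7l2.

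Other genes of the pathway were read the same way. A start peak in both lists was found at all 15 receptor genes, all 11 genes of the cytoplasmic machinery and 10 of 11 genes of nuclear partners. It was also found at 13 of 14 inhibitor genes and 10 of 11 targets, beside 70.9% of all protein-coding genes. The exceptions were Tle2, a co-repressor gene with start peaks in FM only, the inhibitor gene Dkk4, with one in KO only, and the target Cdx4, with none. The FM-specific shares were 78.6% for receptors, 78.9% for nuclear partners, 76.3% for inhibitors, 68.3% (59.3 to 76.4) for the cytoplasmic genes and 62.2% (51.4 to 72.2) for the targets. Together the 62 genes gave 74.5%, beside the 73.2% of all specific regions. Of them, 45 had more FM-only and 9 more KO-only regions, as did 57.0% and 11.8% of all protein-coding genes, a reference that includes genes with no region. Among single genes, Lrp5, a Wnt co-receptor gene, had 22 FM-only and 2 KO-only regions, and Lrp6, the related co-receptor gene, had 10 and 0. Myc had 5 and 9, and Fzd6, a receptor gene, 5 and 8. These genes were named after their values were seen.

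As a check of the cell type, start peaks of marker genes were counted. Of all protein-coding genes 70.9% had one in both lists, so these few genes cannot decide the cell type. Of 7 epiblast genes, 6 had a start peak in both lists, and Nanog had one in the KO list only. All 6 primitive streak genes had one in both. Of 6 fibroblast genes, included since feeder fibroblasts could remain, 4 had one in both lists and Col3a1 and Postn in neither. The regions of these 6 genes were FM-specific in 80.9% of specific ones (69.5 to 89.4), 55 FM only and 13 KO only, close to the 83.0% of the TCF/LEF genes. Most came from Twist2, with 33 and 4, and Thy1, with 17 and 6. The shares were 72.9% (58.2 to 84.7) for the epiblast genes and 76.4% (63.0 to 86.8) for the streak genes. Open starts do not measure how many cells of a type were present, and their part in the results was not tested.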

How the data were processed

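The data were 2 peak lists in narrowPeak layout, 1 per group of 3 libraries, without headers. Per the submitters' processing notes, bcl2fastq, Bowtie2, SAMtools and MACS2 were used with build mm10, and no versions are given. The pooling of libraries, read filters and any Tn5 shift are not stated in labels or files. For each peak the authors deposited its fold enrichment over local background, a ratio, and −log10 of p and q. These are the authors' own peak values. The deposited score repeats the q-value and was not used. The lowest −log10 q was 1.30 in each list, a q threshold of 0.05.

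Rows of the same interval were collapsed to the lowest p-value, and peaks on assembled chromosomes were merged to regions, shared at an overlap of 1 bp. Regions were assigned to the nearest of 21887 protein-coding RefSeq genes of GRCm38.p6, with distance 0 inside. Starts were those of the RefSeq promoter table plus the 5′ end of the gene, or both ends for Notum, which has no entry there. Pileups were solved from fold and p as MACS2 defines them, for 205661 of 205844 FM and 138467 of 139164 KO peaks. Of those recovered, 99.9985% and 99.9913% were whole numbers within a tolerance of 0.05. Depth in reads is unknown. The commonest background was 28.6 fragments in FM and 28.9 in KO, a guide to relative depth provided that the calling settings were equal. Merging, gene assignment and the pileup solution were checked on simulated data, in which peaks were spaced more simply than in the real lists. Python 3.11.15, pandas 2.3.3 and scipy 1.17.1 were used.

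All 10 genes are described. The regions named are, for each gene, the strongest at a start, the strongest distal, the strongest specific of each list and those of largest rank difference over 20 points, of which the text gives a selection. The pileup intervals, the 5 kb split, the 1 Mb surroundings, the fold ratio of 1.5 and the −log10 q of 10 for specific regions were chosen after the data were seen. The design named gene ends, and 5′ starts were used in their place because the reference gives strands. The members and lists were chosen with earlier results of these data known. The labels do not say whether the libraries of a group came from separate cultures.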

Additional observations from a re-analysis of the deposited data

How the results depend on the processing

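No paired analysis was possible because each group is deposited as 1 pooled list, and leaving out single libraries was not run for the same reason. The FM-specific share of 78.0% was 60.3% with the 50000 peaks of lowest p from each list, where all regions gave 49.7%. Without Tcf7l2, Lef1 and Tcf7l1, chosen after seeing the data, it was 68.2%. In the other settings it stayed between 76.4% and 78.8%. The share of all specific regions did not stay alike in these settings. At −log10 q of at least 10 it was 63.0%, where the 10 genes had 77.2%, and elsewhere it was 72.1% to 73.6%. The 367 regions became 234 within 10 kb of the genes, 235 at −log10 q of at least 5, 102 at 10 or more, 115 with 50000 peaks per list and 155 without those 3 genes. Filtering came first, so specific regions there can overlap unfiltered weak peaks of the other group. At −log10 q of at least 10 the 10 genes had 44 FM-only and 13 KO-only regions. Only 9 FM-only and 8 KO-only regions of that strength were specific in the full lists. Most of the specific regions in that setting thus overlapped a weaker peak of the other list. All 10 genes kept a start peak in both lists in each planned setting. Only the limits on q and the 50000 peaks could change this, since the other settings leave the peaks at starts as they are. The median rank difference of shared regions was 0.33 percentile points and lay between −1.74 and 1.01 in all settings. For single genes 83 shares stayed within their interval, but some of these could not leave it. Keeping every summit row changes no region, and leaving out those 3 genes changes no share of another gene. At Sp5 and Notum (0 to 97.5) and Dkk1 (1.26 to 98.7) the interval covered nearly all values. The other 6 shares left their interval. With 50000 peaks these were Lef1 at 54.5% (6 of 11), Tcf7l1 at 63.6% (7 of 11), Tcf7 at 25% (1 of 4) and Sp8 at 0% (0 of 1). At −log10 q of at least 10 they were Lef1 at 66.7% (8 of 12) and Nkd1 at 87.5% (7 of 8). Read depth is unknown, so how far it limits weak regions was not tested.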
